A study of Homo sapiens with 4 samples.

Results

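Carbonic anhydrases are zinc enzymes that interconvert carbon dioxide and water with bicarbonate and a proton. The family was followed through 4 conditions of OVSAYO cells, an established cell line of ovarian clear cell carcinoma (CCC). The members were chosen by gene name, as carbonic anhydrases of this array listed for the purpose, and they were the 10 genes CA2, CA3, CA4, CA5B, CA8, CA9, CA11, CA12, CA13 and CA14. These 10 genes were among 17721 genes with a symbol on the array, and 14 probes represented them. A further 7 genes, other carbonic anhydrases and receptor phosphatases with a carbonic anhydrase domain, were read beside them.

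All cells were OVSAYO cells transfected with siRNA and cultured for 40 h by the sample labels, where a legend of the study gives a shorter time. NS-si cells, also called control cells here, received a scramble, non-specific siRNA, and Sp1-si cells, also called silenced cells, an siRNA pool against Sp1, a ubiquitous transcription factor that binds GC-rich promoter elements. In the conditions named NS-si → CoCl2 and Sp1-si → CoCl2, the medium was then replaced and the cells were kept for a further 4 h in 0.5 mM cobalt chloride (CoCl2), which mimics hypoxia by stabilising the hypoxia-inducible factors (HIFs). By a legend of the study, cells not given CoCl2 were kept for the same 4 h with a vehicle control. The design crosses both treatments, so that the response to CoCl2 can be set beside itself with and without Sp1. RNA of each condition was hybridised to 1 single-colour Agilent array, so there was no replicate culture, no p-value and no estimate of the spread between cultures, and every ratio below compares 2 arrays, not 2 populations of cultures. All 4 conditions were of 1 cell line, transfection with siRNA was common to them, and no untransfected cells were measured.

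Members of the family are told apart by where they work. CA2, CA3 and CA13 are cytosolic enzymes, CA5B is mitochondrial, CA4 is tethered to the outer face of the membrane by a lipid anchor, and CA9, CA12 and CA14 span the plasma membrane with the active site outside the cell. CA8 and CA11 are related proteins that have lost enzymatic activity. In tumours the extracellular enzymes are studied for their part in pH control, working beside bicarbonate transporters, proton exporters and lactate carriers, and CA9 is a textbook target of HIF1.

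Values are given as the array's processed signal, in arbitrary units of fluorescence. Ratios are differences of log2 signals after each array was set to its own 75th percentile, which lay at 1143 for NS-si, 1099.7 for Sp1-si, 977 for NS-si → CoCl2 and 1287 for Sp1-si → CoCl2. A probe's brightness depends on its own sequence, so levels were compared between conditions for 1 probe and never between genes. A ratio of at least 2-fold, 1 on the log2 scale, was counted as higher or lower. Every member probe had 1 spot per array, so the error given with a ratio is a technical one, the median SD of the log2 ratio among the spots of probes printed 10 times, taken from 53 such probes of like signal. It covers spot and scanner noise within these arrays only. The SP1 probe printed 10 times read 553, 39.2, 429 and 38.7 in NS-si, Sp1-si, NS-si → CoCl2 and Sp1-si → CoCl2 cells, a log2 ratio of -3.77 without and -3.87 with CoCl2 between silenced and control cells. Of 5 CCC markers and 5 epithelial markers, all 10 were detected in every condition, with signals from 61.8 to 66200.2 and from 3040 to 146282. Blood, endothelial and erythroid markers PTPRC, PECAM1, CDH5 and HBB stayed at background throughout, as did COL3A1 and WT1, whereas CD3E, VWF, DCN, ALB and ESR1 gave signals above it, at 327 at most. In total RNA from a culture, fewer cells with a transcript and less transcript per cell cannot be told apart.

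Promoter windows of CA9, CA12 and CA5B are shown because CA9 is the reference HIF target of the family and because CA12 and CA5B were the members that passed the 2-fold limit in these arrays. Each is the RefSeq window of assembly GRCh38.p14, from 250 bases before to 50 bases after the start site, written 5′ to 3′ on the strand of the gene. Capitals mark the core letters of the hypoxia response element, ACGTG or GCGTG, and of the GC box that Sp1 binds, GGGCGG, on either strand. A match on the other strand appears as its reverse complement. The motifs did not overlap in these windows. CA9 lies at chr9:35673678-35673977 on the plus strand, CA12 at chr15:63381797-63382096 on the minus strand and CA5B at chrX:15738020-15738319 on the plus strand.
CA9: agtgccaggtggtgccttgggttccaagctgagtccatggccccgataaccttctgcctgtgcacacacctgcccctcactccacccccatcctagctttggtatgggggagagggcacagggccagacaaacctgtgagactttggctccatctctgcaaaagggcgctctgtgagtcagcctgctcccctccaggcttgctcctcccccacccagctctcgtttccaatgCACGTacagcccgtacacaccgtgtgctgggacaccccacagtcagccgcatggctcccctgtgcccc
CA12: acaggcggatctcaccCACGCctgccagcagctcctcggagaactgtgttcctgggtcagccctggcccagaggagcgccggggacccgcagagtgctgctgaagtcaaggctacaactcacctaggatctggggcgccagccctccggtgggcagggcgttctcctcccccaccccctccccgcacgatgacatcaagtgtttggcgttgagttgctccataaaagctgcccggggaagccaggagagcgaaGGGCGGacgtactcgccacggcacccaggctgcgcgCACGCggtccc
CA5B: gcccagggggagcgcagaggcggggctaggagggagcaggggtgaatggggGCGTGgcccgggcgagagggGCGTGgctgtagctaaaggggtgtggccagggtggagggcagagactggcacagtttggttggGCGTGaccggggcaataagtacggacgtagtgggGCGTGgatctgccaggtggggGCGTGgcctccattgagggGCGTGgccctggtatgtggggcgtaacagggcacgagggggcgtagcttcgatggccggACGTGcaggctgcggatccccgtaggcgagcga

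The CA9 window held a single ACGTG, on the reverse strand from -18 to -14 relative to the start site, and none of the other letters searched. The CA12 window held GCGTG at 2 places, both on the reverse strand, from -234 to -230 and from 40 to 44, and 1 GC box from 4 to 9, just after the start site. CA5B differed from both in having 6 copies of GCGTG, all on the forward strand between -199 and -38, and 1 ACGTG from 18 to 22, without a GC box. CA14, the other member with a window read here, lies at chr1:150257524-150257823 and held none of the letters. Windows of CA2, CA3, CA4, CA8, CA11 and CA13 were not among those selected. This does not mean that these genes lack a RefSeq window, and their motifs were not examined. Such letters are common. Of 35116 promoter windows of the same length, 21.4% held ACGTG, 36.5% held GCGTG and 45% held GGGCGG, and a match is a description of the letters only.

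Detection differed among the members. Of the 10 genes, 7 had a probe well above background on all 4 arrays, namely CA2, CA5B, CA8, CA11, CA12, CA13 and CA14, and 3, CA3, CA4 and CA9, were above background on no array. Of the 14 probes, 9 were above background on every array, 3 on none and 2 on some of them. No member spot was saturated or marked as an outlier.

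**Figure D1:**
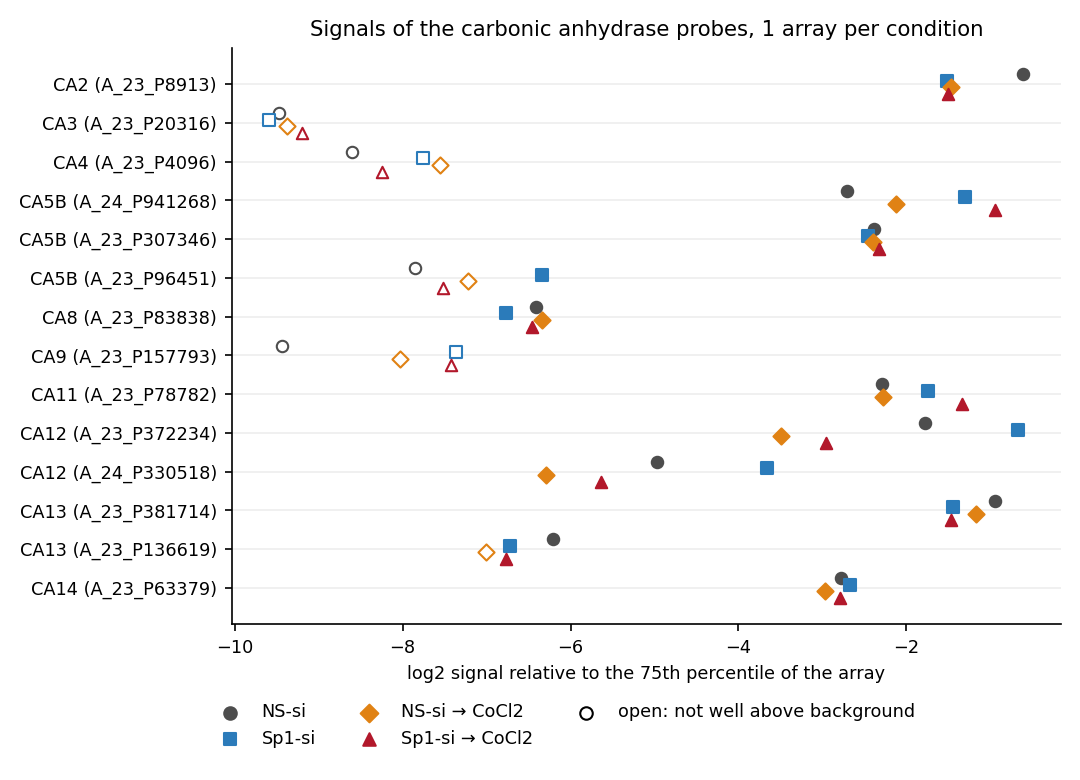
Signals of the 14 carbonic anhydrase probes on the 4 arrays, as log2 signal relative to the array's 75th percentile (horizontal axis), with 1 symbol per condition and open symbols where a spot was not well above background. Positions may be compared along a row but not between rows. The CoCl2 points of both CA12 probes lie to the left of the points without CoCl2, and CA9, CA3 and CA4 have open symbols only.

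Among the extracellular, membrane-spanning enzymes, CA12 was the member with the lowest ratios after CoCl2, and it was lower rather than higher. The CA12 signal was 334 for NS-si against 86.7 for NS-si → CoCl2, and 693 for Sp1-si against 165 for Sp1-si → CoCl2. The Sp1-si array was thus the highest and the NS-si → CoCl2 array the lowest, and both CoCl2 arrays lay below both arrays without it. CoCl2 went with a 3.29-fold lower level in control cells, a log2 ratio of -1.72 ± 0.073 (technical SD, 1 array per condition), and with a 4.91-fold lower level in silenced cells, -2.30 ± 0.074. Of the 31313 probes measured on both NS-si arrays, 220 had a ratio as low, and of 30685 measured on both Sp1-si arrays, 41 did.

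Silencing of Sp1 went with a higher CA12 level. In the absence of CoCl2 the ratio of Sp1-si to NS-si cells was 2.16-fold, 1.11 ± 0.069 on the log2 scale, and 1224 of 31437 probes had a ratio as high. Under normexp it was 0.96, short of the 2-fold limit. Under CoCl2 it was 1.45-fold, 0.53 ± 0.081, below the 2-fold limit. The CoCl2 ratio in silenced cells minus that in control cells came to -0.58 ± 0.10, a difference of 1.49-fold, and 3900 of 30234 probes had one as low. The size of that difference was sensitive to scaling, being -0.12 without any.

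A second CA12 probe gave the same directions at a dimmer signal. It read 36.3 for NS-si, 86.7 for Sp1-si, 12.5 for NS-si → CoCl2 and 25.8 for Sp1-si → CoCl2, so the order of the 4 arrays was the same as for the first probe. Its log2 ratios for CoCl2 were -1.32 ± 0.31 in control and -1.97 ± 0.29 in silenced cells, and for Sp1 silencing 1.31 ± 0.36 without and 0.65 ± 0.36 with CoCl2. With background corrected by normexp, the CoCl2 ratio of this dim probe in control cells shrank to -0.20, and its ratio for Sp1 silencing under CoCl2 moved to -0.07.

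CA9, the member best known for induction by HIF, was not detected well above background in any condition. The signal of its only probe was 1.65 for NS-si, 6.66 for Sp1-si, 3.74 for NS-si → CoCl2 and 7.48 for Sp1-si → CoCl2. For comparison, the lowest signals called well above background were 7.39, 6.72, 6.93 and 10.2 on these arrays. No ratio is therefore given for CA9, and a change below that level of signal was not detectable here.

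CA14, the third transmembrane enzyme, varied little. It read 167, 173, 124 and 186 in NS-si, Sp1-si, NS-si → CoCl2 and Sp1-si → CoCl2 cells. Its log2 ratios lay between -0.20 ± 0.073, for CoCl2 in control cells, and 0.19 ± 0.081, for Sp1 silencing under CoCl2. CA4, the lipid-anchored enzyme, read 2.94, 5.07, 5.18 and 4.23 and was above background on no array.

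Of the cytosolic enzymes, CA2, the highly active and widely expressed form, was highest in control cells. Its signal was 749 there, against 385 in Sp1-si, 354 in NS-si → CoCl2 and 453 in Sp1-si → CoCl2 cells. The other 3 arrays were close to each other once scaled, at log2 levels of -1.51, -1.47 and -1.51 relative to the 75th percentile, with NS-si at -0.61. CA2 was thus 1.81-fold lower with CoCl2 in control cells (-0.86 ± 0.041) and at 0.01 ± 0.037 in silenced cells. Its ratio of Sp1-si to NS-si cells was -0.90 ± 0.037 without CoCl2 and -0.04 ± 0.039 with it. The CoCl2 ratio in Sp1-si minus that in control cells was 0.86 ± 0.052, and 527 of 30234 probes had a difference as high. All of these values were under the 2-fold limit. Both values different from 0 share the NS-si array, which is where CA2 stood apart. Without scaling of the arrays the CoCl2 ratio in control cells was -1.08, past the limit, and the difference was 1.32.

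CA13, another cytosolic enzyme, read 596 for NS-si, 405 for Sp1-si, 433 for NS-si → CoCl2 and 466 for Sp1-si → CoCl2, again with the highest value in control cells. Its log2 ratios were -0.23 ± 0.041 and -0.02 ± 0.037 for CoCl2 in control and silenced cells. For Sp1 silencing they were -0.50 ± 0.037 without and -0.29 ± 0.039 with CoCl2, the latter turning to 0.11 without scaling. A second, dim CA13 probe read 15.4, 10.4, 7.58 and 11.8 in NS-si, Sp1-si, NS-si → CoCl2 and Sp1-si → CoCl2 cells. Its NS-si → CoCl2 spot was not well above background. The 2 ratios with it used that spot's own signal, so they are not strict bounds. They were 1.74-fold lower for CoCl2 in control cells and 1.18-fold higher for Sp1 silencing under CoCl2, the latter opposite to the brighter probe. Neither of them was left under normexp. Sp1-si over NS-si gave -0.51 ± 0.36, and CoCl2 in silenced cells -0.05 ± 0.29. CA3, the cytosolic form best known from skeletal muscle, read 1.61, 1.43, 1.47 and 2.19 and was above background on no array.

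CA5B, the mitochondrial enzyme, was the member with the highest ratio after Sp1 silencing, but its probes differed. The brightest of its 3 probes on average over the arrays read 175 for NS-si, 445 for Sp1-si, 225 for NS-si → CoCl2 and 668 for Sp1-si → CoCl2. Both Sp1-si arrays lay above both NS-si arrays. The ratio of Sp1-si to NS-si cells was 2.65-fold without CoCl2, 1.40 ± 0.069 on the log2 scale, and 2.26-fold with it, 1.18 ± 0.081, and 670 of 31437 and 1300 of 30514 probes had ratios as high. Under normexp the ratio with CoCl2 was 0.95, short of the 2-fold limit. For CoCl2 the log2 ratios were 0.59 ± 0.073 in control and 0.36 ± 0.074 in silenced cells, both higher and both under the limit. The difference of these was -0.23 ± 0.10, which turned to 0.22 without scaling.

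A second CA5B probe of like brightness gave 218, 200, 185 and 257 in NS-si, Sp1-si, NS-si → CoCl2 and Sp1-si → CoCl2 cells. All 4 of its log2 ratios lay between -0.07 ± 0.069 and 0.13 ± 0.074, so it did not show the higher level after Sp1 silencing. The third probe, at 4.96, 13.6, 6.53 and 7.004, was above background in Sp1-si cells without CoCl2 alone. There it was at least 1.91-fold higher than in NS-si cells and at least 1.55-fold higher than in Sp1-si → CoCl2 cells, the latter opposite in direction to the brightest probe. Under normexp the log2 bounds shrank to 0.20 for Sp1-si over NS-si and to -0.30 for Sp1-si → CoCl2 over Sp1-si. The files pair all 3 probes with the same RefSeq transcript, and which part of it each covers was not examined here. Averaged over its measured probes, CA5B was under the 2-fold limit in every comparison.

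The 2 members without enzymatic activity were both detected. CA11, a secreted carbonic anhydrase-related protein, read 234 for NS-si, 328 for Sp1-si, 201 for NS-si → CoCl2 and 509 for Sp1-si → CoCl2, so both Sp1-si arrays were above both NS-si arrays. Its log2 ratio for Sp1 silencing was 0.54 ± 0.069 without CoCl2 and 0.94 ± 0.081 with it, 1.92-fold. That second value lay just under the limit, and it ranged from 0.77 to 1.34 over the alternative settings. CoCl2 itself gave 0.01 ± 0.073 in control and 0.41 ± 0.074 in silenced cells. CA8, a cytosolic protein known for binding a calcium release channel receptor in neurons, read 13.4, 10.1, 12.1 and 14.6, close to the lowest detectable signals. Its log2 ratios, between -0.35 ± 0.36 and 0.30 ± 0.29, were of about the size of their technical error.

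**Figure D2:**
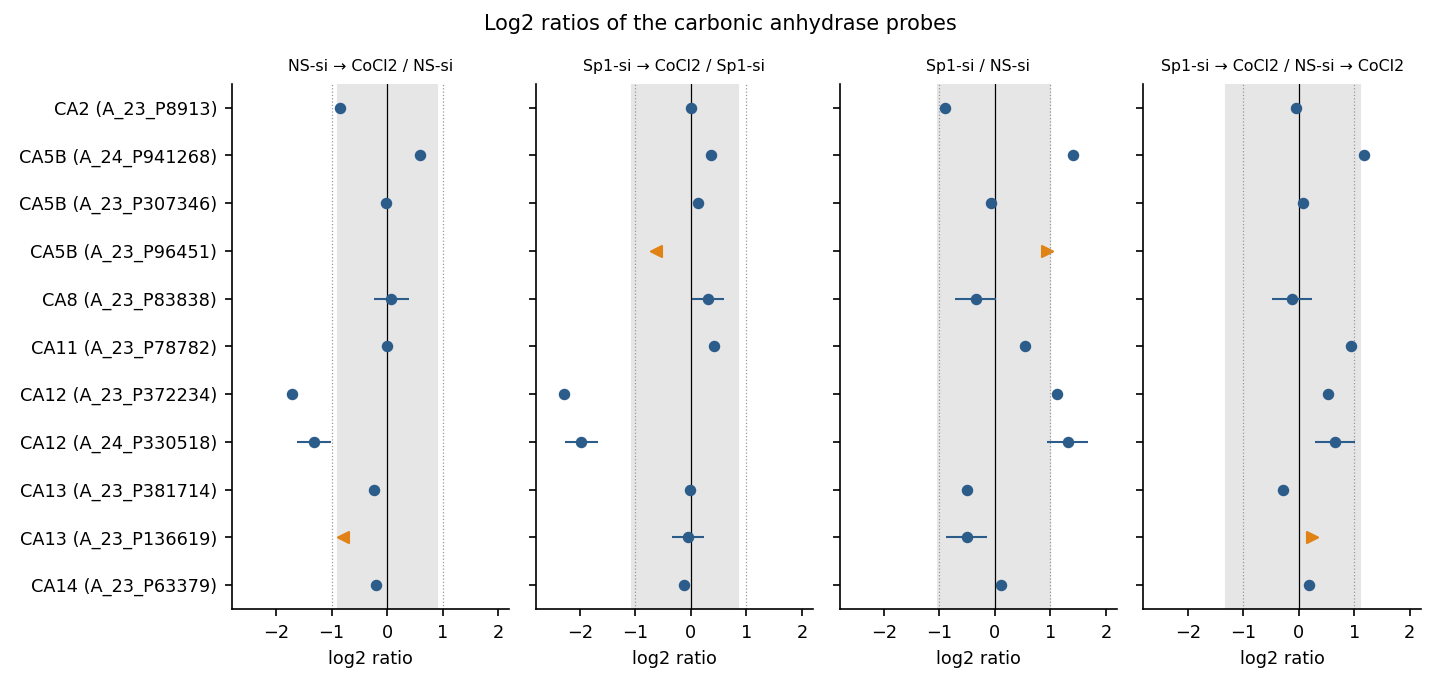
Log2 ratios of the 11 carbonic anhydrase probes that gave at least 1 ratio, in 4 comparisons (columns), with bars of 1 technical SD and 1 array per condition. Triangles are bounds where 1 of both arrays was not well above background, or, for CA13, ratios with the dim spot's own signal. The grey band runs from the 5th to the 95th percentile of all probes measured on both arrays, and dotted lines mark 2-fold. Both CA12 probes lie left of the band in the CoCl2 columns, 1 of the 3 CA5B probes lies right of it in both Sp1 columns, and both CA12 probes do so without CoCl2.

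Over the family, each gene was represented by the probe brightest on average over all 4 arrays, the Sp1-si arrays included. For CA5B this probe was dimmer than the second one in NS-si cells, 175 against 218, and brighter on the other arrays. Its calls after Sp1 silencing were thus not independent of how the probe was chosen. In each comparison 7 of the 10 members had a ratio. With CoCl2 in control cells, no member was higher by 2-fold, where 4.54% of all probes tested were, and 1 member, CA12, was lower, where 4.34% were. In Sp1-si cells, CoCl2 gave no member higher, against 3.68% of probes, and 1 lower, again CA12, against 6.22%. For Sp1 silencing without CoCl2, 2 members, CA5B and CA12, were higher and none lower, against 5.52% and 5.86% of probes. With CoCl2, 1 member, CA5B, was higher and none lower, against 6.29% and 9.7%. The difference of the CoCl2 ratios reached 2-fold in no member, against 1.04% of probes higher and 4.9% lower. The count of 2 after Sp1 silencing without CoCl2 is above the share of all probes, but it rests on 2 genes, of which CA12 fell short of the limit under normexp and CA5B when its probes were averaged, and with 7 genes nothing is read from these counts about the family as a group. The median log2 ratio of the members was -0.20 and 0.01 for CoCl2 in control and silenced cells and 0.11 and 0.19 for Sp1 silencing without and with CoCl2, where the medians of all probes were 0.02, -0.02, -0.02 and -0.06. Of all probes called, 51.1% and 37.2% were higher with CoCl2 in control and silenced cells and 48.5% and 39.4% higher after Sp1 silencing without and with CoCl2. These shares rest on the scaling, being 28.3%, 63.3%, 42.8% and 76.1% without any, and the second and last of them 48.8% and 50.3% with arrays set to their medians. Each array enters 2 of these 4 comparisons. The CoCl2 ratio in control cells and that in silenced cells share no array, and 590 of 30234 probes above background on all 4 arrays, 1.95%, were lower by 2-fold in both, as both CA12 probes were, the dimmer one not under normexp. Likewise 1037, 3.43%, were higher by 2-fold after Sp1 silencing both without and with CoCl2, as the brightest CA5B probe was.

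**Figure D3:**
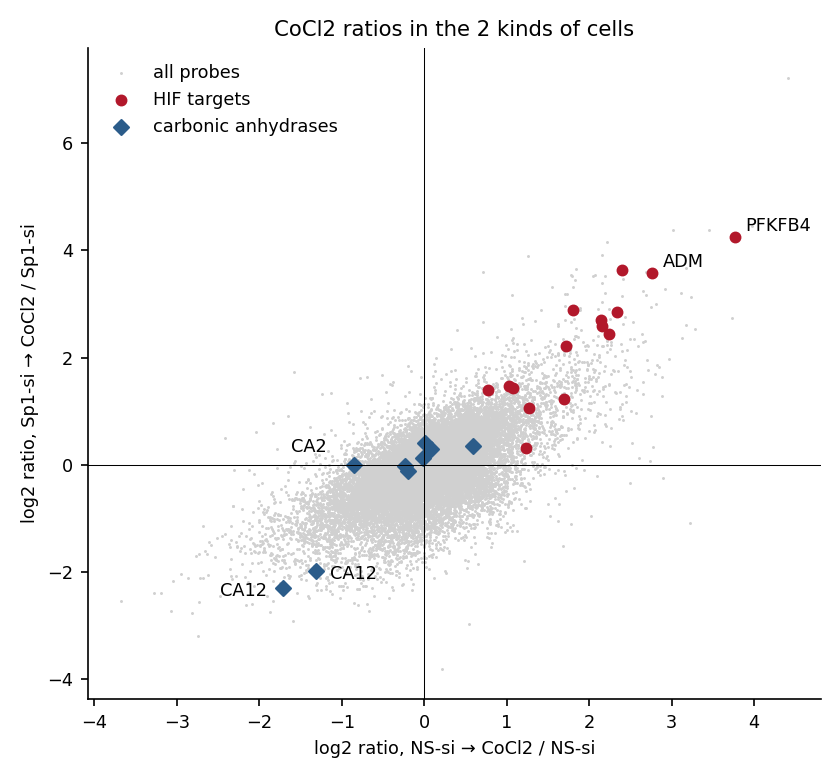
Log2 ratio for CoCl2 in control cells (horizontal axis) against that in silenced cells (vertical axis) for the 30234 probes above background on all 4 arrays (grey), with HIF targets as red circles and carbonic anhydrase probes as blue diamonds. HIF targets lie at the upper right, both CA12 probes at the lower left, and the other carbonic anhydrases near the centre, with CA2 to the left.

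The direction of CA12 was opposite to that of a set of 16 established HIF targets. This list was chosen with earlier results of these data known, so it is no independent check of the CoCl2 treatment. In NS-si cells 15 of the 16 were higher by 2-fold and none lower, with a median log2 ratio of 1.81. Of all probes tested 4.54% were higher and 4.34% lower there. In Sp1-si cells 14 of the 15 with a ratio were higher, with a median of 2.45, against 3.68% of all probes. PFKFB4, a regulator of glycolysis, read 593 and 6912 in control cells without and with CoCl2 and 341 and 7572 in silenced cells, log2 ratios of 3.77 and 4.25. ADM, which encodes the vasodilator peptide adrenomedullin, had ratios of 2.77 and 3.58, ANKRD37 of 2.40 and 3.63, and PDK1, a kinase that restrains entry of pyruvate into mitochondria, of 1.81 and 2.89. The exceptions to the 2-fold limit were LDHA at 0.78 in control cells and SLC2A1, the glucose transporter, at 0.32 in silenced cells. For Sp1 silencing, 2 of 15 HIF targets were lower without CoCl2 and 1 of 16 with it, and none was higher. Of all probes 5.86% and 9.7% were lower and 5.52% and 6.29% higher, and nothing is read from such small counts.

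Among the other genes of the family, CA5A, the second mitochondrial enzyme, was the one past 2-fold. CA5A read 63.7 for NS-si, 30.4 for Sp1-si, 57.4 for NS-si → CoCl2 and 25.8 for Sp1-si → CoCl2. Both Sp1-si arrays lay below both NS-si arrays, with log2 ratios of -1.01 ± 0.069 without and -1.55 ± 0.081 with CoCl2, opposite in sign to those of the brightest CA5B probe. CoCl2 gave 0.08 ± 0.073 and -0.46 ± 0.074 in control and silenced cells. A second CA5A probe was above background on no array. CA1, the red cell enzyme, read 39.6, 39.3, 31.4 and 45.7, with no log2 ratio over 0.14 in size. CA7 was dim, at 9.37, 8.60, 10.9 and 14.5. PTPRG, a receptor phosphatase with a carbonic anhydrase domain, read 149, 134, 150 and 229, with its highest log2 ratio, 0.54 ± 0.074, for CoCl2 in silenced cells. PTPRZ1, its relative, read 15.3, 7.72, 12.8 and 9.74 on its brightest probe and was not above background in Sp1-si → CoCl2 cells. After Sp1 silencing it was at -0.93 ± 0.36 without CoCl2, and at least 1.65-fold lower with it, both under the limit. A second PTPRZ1 probe, above background in Sp1-si cells without CoCl2 alone, was 1.13-fold higher there than the dim NS-si spot's own signal. The last was above background on no array. CA6, the salivary enzyme, and CA10 were above background on no array. Of these 7 genes 5 had a ratio, and 1, CA5A, was lower by 2-fold after Sp1 silencing without and with CoCl2. Without CoCl2 it passed the limit by less than its technical SD. In the authors' value table, where the median of all probes in that comparison moved from -0.02 to 0.02, it was short of the limit. Of all probes 5.86% and 9.7% were lower in these comparisons, and nothing is read from 1 gene. None passed the limit with CoCl2, where 4.54% of probes were higher and 4.34% lower in control cells and 3.68% and 6.22% in silenced cells.

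**Figure D4:**
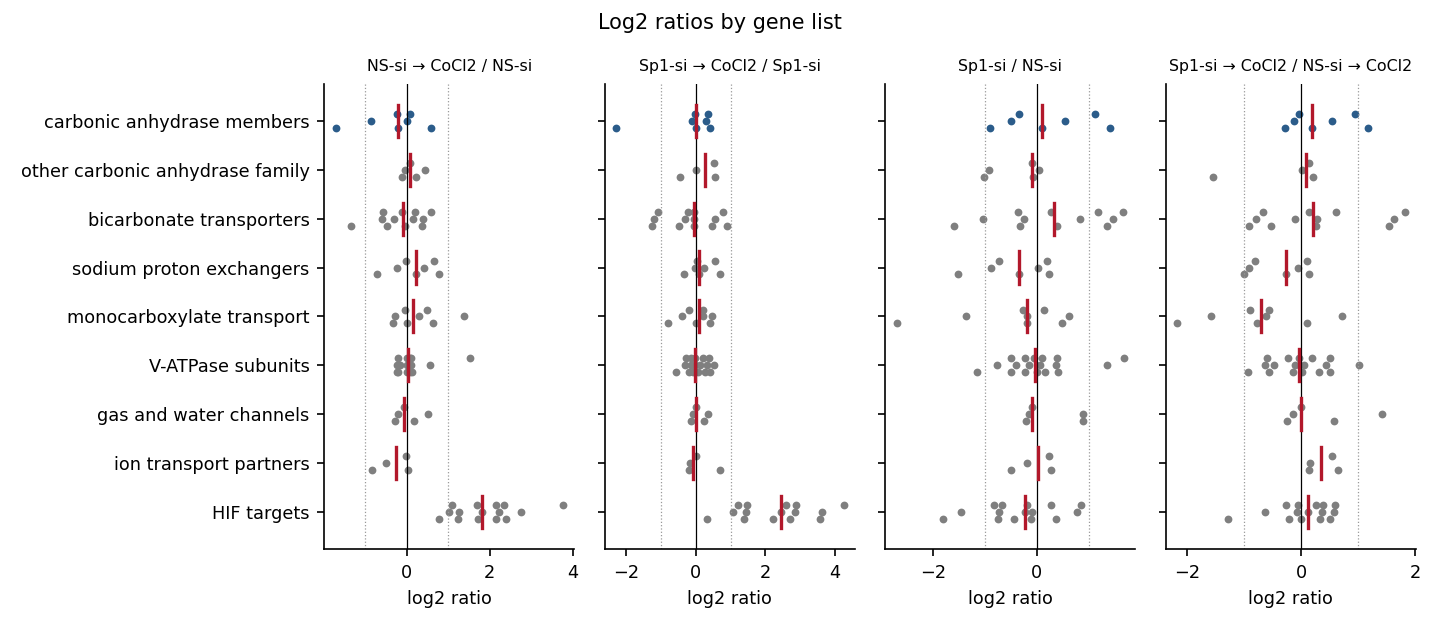
Log2 ratios in the 4 comparisons (columns) of the carbonic anhydrase members (blue) and of 8 lists of genes (grey), with 1 point per gene measured on both arrays, a red bar at the median and dotted lines at 2-fold. HIF targets lie to the right in the CoCl2 columns, the carbonic anhydrase members centre near 0, and bicarbonate transporters spread to both sides in the Sp1 columns.

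Carbonic anhydrases supply or consume the bicarbonate, protons and carbon dioxide that membrane transporters carry, and lists of those transporters were read in the same way. Beside each list stand the shares of all probes, which with CoCl2 were 4.54% higher and 4.34% lower in control cells and 3.68% and 6.22% in silenced cells, and after Sp1 silencing 5.52% and 5.86% without and 6.29% and 9.7% with CoCl2. Of 15 bicarbonate transporters 14 had a probe. With CoCl2 none was higher by 2-fold, while 1 of 12 with a ratio was lower in control and 3 of 13 in silenced cells. After Sp1 silencing 4 of 13 were higher and 2 lower without CoCl2, and 3 were higher and none lower with it. SLC26A9, a chloride channel and transporter of epithelia, shared its highest and its lowest array with CA12, reading 74.1 for NS-si, 224 for Sp1-si, 24.8 for NS-si → CoCl2 and 115 for Sp1-si → CoCl2. It was lower with CoCl2, with log2 ratios of -1.35 in control and -1.19 in silenced cells, and higher after Sp1 silencing, by 1.65 and 1.81 without and with CoCl2. SLC26A6, an exchanger of chloride for bicarbonate, was higher after Sp1 silencing by 1.35 and 1.55, and SLC4A3, an anion exchanger, by 1.47 and 1.63. SLC26A4, also called pendrin, was at -1.60 without CoCl2 and at -0.91 with it.

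Proton exporters and lactate carriers were read against the same shares of all probes. No sodium proton exchanger of 7 with a ratio passed the limit with CoCl2. After Sp1 silencing 1 was lower without CoCl2, SLC9A2 at -1.51, and 1 with it, SLC9A7 at -1.002. SLC9A7 was barely past the limit. Under median scaling, where the median of all probes in that comparison moved from -0.06 to 0.05, it was short of it. Among 8 genes of monocarboxylate transport, 1 was higher with CoCl2 in control cells and none in silenced cells, and 2 were lower after Sp1 silencing in each case. SLC16A3, the lactate exporter MCT4, read 30559.9 in control and 4524 in silenced cells, a log2 ratio of -2.70, and 20754 and 6053 under CoCl2, a ratio of -2.18. SLC16A4 was lower likewise, at -1.37 and -1.58, and SLC16A6 was the gene higher with CoCl2, at 1.37 in control cells against -0.01 in silenced cells.

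Of 18 subunits of the V-ATPase, the proton pump of acidic organelles, 1 was higher with CoCl2 in control cells and 1 lower in silenced cells, and after Sp1 silencing 2 were higher and 1 lower without CoCl2 and 1 higher and 1 lower with it. A single gene of 18 is near the share of all probes in these comparisons, and nothing is read from it. Both calls with CoCl2, 1 of those higher after silencing and the lower one under CoCl2 were of 1 dim gene, ATP6V1B1. It read 13.1 for NS-si, 40.4 for Sp1-si, 32.3 for NS-si → CoCl2 and 6.34 for Sp1-si → CoCl2. The last was not above background, and the technical SD at such signals was 0.31 for CoCl2 in control cells. ATP6V0A4 was higher after silencing by 1.35 and 1.02 without and with CoCl2, and ATP6V1B2 was at -1.16 without it and at -0.64 with it. Of 5 gas and water channels with a ratio, 1 was higher, RHBG, an ammonia channel, at 1.41 for Sp1 silencing under CoCl2, and none of 4 further ion transport genes passed the limit in any comparison. The medians of these lists lay between -0.70, for monocarboxylate transport after Sp1 silencing under CoCl2, and 0.34. Some cell identity markers also moved with Sp1 silencing. NAPSA, a CCC marker, was at log2 ratios of -2.33 and -2.39 without and with CoCl2, CDH1, the epithelial cadherin, at -1.55 and -1.73, and GPC3, another CCC marker, at 2.29 and 2.36. Their part in the values of CA12 and CA5B was not tested.

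The genes whose pattern over the 4 arrays was most like that of CA12 or CA5B were found by the Euclidean distance of mean-centred log2 values, among 14276 other genes above background on all arrays. With 4 values per gene, likeness is a description only. Nearest to CA12 were TLR5, a receptor for bacterial flagellin, at a distance of 0.37, the antisense RNA ST7-AS1 at 0.44, and EPHA4, an ephrin receptor, at 0.47. TLR5 read 47.5 for NS-si, 78.7 for Sp1-si, 11.7 for NS-si → CoCl2 and 26.8 for Sp1-si → CoCl2. EPHA4 read 1414, 3451, 401 and 535 in the same order. Nearest to the brightest CA5B probe were LAMP2, a lysosomal membrane protein, at 0.11, RBM38, an RNA-binding protein, at 0.11, and RELL2 at 0.12. LAMP2 read 1524 for NS-si, 4269 for Sp1-si, 1987 for NS-si → CoCl2 and 5881 for Sp1-si → CoCl2. Distances to the 3 nearest genes were larger for CA12 than for CA5B.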

How the data were processed

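Total RNA of 4 OVSAYO cultures, 1 per condition, was labelled with Cy3 and hybridised to Agilent whole human genome arrays (design 014850) of 1 slide. The authors deposited scanner output of Agilent Feature Extraction 10.5.1.1, in which processed signals are background-subtracted intensity values per spot. The deposited value table held these intensity values times 1 constant per array (1.43 for NS-si, 1.52 for Sp1-si, 1.58 for NS-si → CoCl2 and 1.25 for Sp1-si → CoCl2) and served as an alternative scaling, since how the constants were set is not given in the sources used here.

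Control spots were left out (43376 spots of 41000 probes remained), as were spots flagged as outliers. The log2 signal minus the array's 75th percentile was averaged over the spots of a probe, which counted as well above background where at least 50% of them did. If only 1 side of a ratio was above background, a bound was given, with the lowest signal called well above background on the dim array, or the spot's own where higher, as the dim side. With the spot's own signal the value is a ratio with a dim spot and not a strict bound. If neither was, no ratio was given. The number of arrays, 1 per condition, limits the precision, so no test was run. Probe symbols came from RefSeq accessions (28463 of 29877 spots with one matched 1 symbol, and 26222 probes had a symbol). Named genes were all members and other family genes, SP1, up to 4 genes per list with the largest ratios of at least 2-fold, and the 3 nearest patterns of each member past 2-fold. CDH1, NAPSA, GPC3, LDHA, SLC2A1 and ATP6V1B1 were named after their values were seen. Members and lists were chosen with earlier results of these data known. Alternatives were the authors' value table, median, quantile and no scaling, a percentile taken over probes detected everywhere, outlier spots kept, dim signals set to a floor, a 1.5-fold limit, the mean over a gene's probes, measured ratios in place of bounds, only probes detected on every array and, chosen after seeing the data because mean signals were not among the columns, normexp (offset 50) on median signals. The calculations were checked on simulated data. Python 3.11.15, numpy 2.4.6, pandas 2.3.3, R 4.3.3 and limma 3.58.1 were used. A planned comparison of protein sequences was not run. Some planned markers are not reported here.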

Additional observations from a re-analysis of the deposited data

How the results depend on the processing

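No log2 ratio past 2-fold changed sign under any of the 8 other ways of setting the signals. Of 440 values of the member and SP1 probes recomputed under them, 331 moved by less than 1 technical SD and 109 by more. The 331 include 55 with outlier spots kept and 55 with a floor on dim signals. Of 864 values of the named genes of other lists, 343 moved by more, and of 512 counts of list genes 31 moved by over 1.5 times. No paired analysis was possible because each condition has 1 array, and for the same reason no replicate could be left out. Keeping outlier spots or setting a floor on dim signals could not move a member probe. No member spot was marked as an outlier, and the bounds already used that floor, so the lack of change there says nothing of robustness. The percentile over probes above background on all arrays moved no member probe by more than 1 technical SD. Without scaling, the median log2 ratio of all probes shifted to -0.21 and 0.21 for CoCl2 in NS-si and Sp1-si cells and to -0.07 and 0.34 for Sp1 silencing without and with CoCl2, and under median scaling those for CoCl2 in silenced cells and for Sp1 silencing with CoCl2 shifted to 0.09 and 0.05.

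CA12 stayed lower with CoCl2 throughout. Its log2 ratio in NS-si cells was -1.94 without scaling, -1.80 in the authors' table and -1.14 under normexp. In Sp1-si cells it was -2.19 under median scaling, -2.07 without scaling, -2.22 under quantile normalization and -1.88 under normexp. For Sp1 silencing without CoCl2 it was 0.96 under normexp, just below the limit. With CoCl2 it was 0.64 under median scaling, 0.93 without scaling, 0.65 under quantile normalization and 0.22 under normexp, and the difference of the CoCl2 ratios was -0.12 without scaling and -0.74 under normexp.

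The members counted as higher after Sp1 silencing without CoCl2 went from 2 to 1 under normexp, which lost CA12, and under the mean over probes, which lost CA5B. With CoCl2 they went from 1 to 2, with CA11, under median scaling, without scaling, in the authors' table and at 1.5-fold, and to 0 under normexp and the mean over probes. For CoCl2 in NS-si cells, members lower went from 1 to 2, with CA2, without scaling and at 1.5-fold, where 1 member, CA5B, was also higher, and at 1.5-fold 1 member, CA2, was lower after Sp1 silencing.

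The counts of all probes moved most without scaling, under normexp and with the lower limit. Probes higher and lower with CoCl2 in NS-si cells were 1491 and 1427, then 928 and 2347 without scaling, 699 and 384 under normexp and 4134 and 3648 at 1.5-fold. In Sp1-si cells they were 1206 and 2038, then 2085 and 1209, 588 and 865, and 3423 and 4930. After Sp1 silencing without CoCl2 they were 1823 and 1938, then 888 and 814 under normexp and 4263 and 4504 at 1.5-fold. With CoCl2 they were 2051 and 3161, then 4620 and 1452 without scaling, 976 and 1710 under normexp and 4771 and 7064 at 1.5-fold. Normexp adds an offset that shrinks ratios of dim probes by construction. The cause of the other shifts was not tested. Signal over background limits CA3, CA4, CA8 and CA9 and the dim probes of CA5B, CA12 and CA13.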
